A study of Homo sapiens with 12 samples.

Results

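BMP signalling and ID genes are described here across all libraries of the study. The set holds 10 genes listed by name, with no threshold on measured values in the rule, although earlier results of these data were known when the list was made: the ligands BMP4 and BMP7, the antagonists NOG and BAMBI, the inhibitory SMAD genes SMAD6 and SMAD7, and the transcriptional targets ID1, ID2, ID3 and ID4. They are 10 of 65969 gene identifiers in the deposited table and 10 of the 24898 that passed the filter on low counts. Each gene matched 1 identifier.

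Total RNA was sequenced from 12 libraries of human embryoid bodies, the aggregates in which pluripotent stem cells differentiate in suspension. The cells were H1 and MEL1, both established human embryonic stem cell lines. All of them, controls included, carried a lentiviral doxycycline-inducible short hairpin, were selected with puromycin (2 µg/ml), were seeded at 500 cells per microwell, and received doxycycline at 2 µg/ml until harvest at day 10. Hairpins KD1, KD2 and KD3 target METTL14, which encodes part of the enzyme complex for N6-methyladenosine, a mark on RNA, and SCR is the control hairpin. H1 gave 2 libraries each of SCR, KD1, KD2 and KD3. MEL1 gave 1 SCR, 2 KD1 and 1 KD2 library, and no MEL1 KD3 library was analysed here. No control without a hairpin or without doxycycline is among these groups. The labels carry no replicate numbers and do not say whether libraries of a group came from separate cultures, so p-values measure only the spread between these libraries, which may be technical.

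Estimated counts summed to 15963241 in the MEL1 SCR library and to between 36609628 and 43508287 in the other 11. METTL14 stood at 29.8 and 43.8 CPM (counts scaled to a common library total) in H1 SCR and at 8.89 to 17.7 CPM in the 6 H1 knockdown libraries. In MEL1 it stood at 49.9 CPM in SCR and at 5.94 to 8.95 CPM in the 3 knockdown libraries, so all 9 libraries with a METTL14 hairpin were below the SCR of their line. Its fitted log2 change over both lines was -1.96 ± 0.23 (SE; adjusted p = 0.00266, edgeR quasi-likelihood test). All levels in CPM are scaled between libraries by TMM, a factor per library that aligns most genes. Fold changes are fitted log2 values with their standard errors, and a gene is called changed when its p-value, adjusted by Benjamini and Hochberg over all 24898 genes, is under 0.05.

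Bone morphogenetic proteins (BMPs) are secreted ligands that bind paired receptor kinases, which phosphorylate SMAD1, SMAD5 and SMAD9. These enter the nucleus with SMAD4 and switch on target genes, among them the ID genes and the pathway's own inhibitors. ID proteins have a helix-loop-helix domain but no DNA-binding region: they capture E proteins, the partners of proneural bHLH factors, and so hold back differentiation. In early embryonic ectoderm BMP signalling favours epidermal and dorsal fates, and its antagonists permit neural fate.

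The promoters of the ID genes and of BAMBI are shown because these are the targets whose levels the results turn on. Of the 10 genes, 8 had promoter entries in the RefSeq table for GRCh38.p14, each covering 250 bases before the start site and 50 from it on. The sequences run 5′ to 3′ on the gene's own strand. Capitals mark, on either strand, GGCGCC (a GC-rich element bound by SMAD1 and SMAD5), GGAGCC (a variant of it), CAGAC (the SMAD box), TATAAA (the TATA box) and CCAAT (the CCAAT box). None of these motifs contains another.
ID1, chr20:31605039-31605338, plus strand: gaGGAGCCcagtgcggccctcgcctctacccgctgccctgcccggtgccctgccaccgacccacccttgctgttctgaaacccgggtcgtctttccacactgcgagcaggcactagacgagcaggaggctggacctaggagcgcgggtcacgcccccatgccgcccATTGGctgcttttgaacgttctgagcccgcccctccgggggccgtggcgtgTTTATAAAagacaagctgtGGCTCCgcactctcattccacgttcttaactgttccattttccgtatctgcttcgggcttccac
ID2, chr2:8681806-8682105, plus strand: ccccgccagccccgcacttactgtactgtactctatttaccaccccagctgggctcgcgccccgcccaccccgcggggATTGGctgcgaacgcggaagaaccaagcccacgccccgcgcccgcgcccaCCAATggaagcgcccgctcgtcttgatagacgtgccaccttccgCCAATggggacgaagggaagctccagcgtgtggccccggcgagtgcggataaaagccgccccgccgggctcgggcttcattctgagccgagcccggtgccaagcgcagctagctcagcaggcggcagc
ID3, chr1:23559452-23559751, minus strand: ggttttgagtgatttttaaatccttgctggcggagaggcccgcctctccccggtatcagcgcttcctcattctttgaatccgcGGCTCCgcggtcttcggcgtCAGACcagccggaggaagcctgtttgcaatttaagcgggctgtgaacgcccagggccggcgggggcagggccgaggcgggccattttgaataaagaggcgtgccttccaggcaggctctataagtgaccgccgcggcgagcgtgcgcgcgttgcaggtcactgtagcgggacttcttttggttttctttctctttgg
ID4, chr6:19837120-19837419, plus strand: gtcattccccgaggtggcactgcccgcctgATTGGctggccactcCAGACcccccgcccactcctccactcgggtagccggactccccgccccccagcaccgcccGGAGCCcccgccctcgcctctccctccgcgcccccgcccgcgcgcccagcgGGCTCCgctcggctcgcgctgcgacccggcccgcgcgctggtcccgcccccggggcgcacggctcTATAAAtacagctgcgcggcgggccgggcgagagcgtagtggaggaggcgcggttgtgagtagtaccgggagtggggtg
BAMBI, chr10:28677271-28677570, plus strand: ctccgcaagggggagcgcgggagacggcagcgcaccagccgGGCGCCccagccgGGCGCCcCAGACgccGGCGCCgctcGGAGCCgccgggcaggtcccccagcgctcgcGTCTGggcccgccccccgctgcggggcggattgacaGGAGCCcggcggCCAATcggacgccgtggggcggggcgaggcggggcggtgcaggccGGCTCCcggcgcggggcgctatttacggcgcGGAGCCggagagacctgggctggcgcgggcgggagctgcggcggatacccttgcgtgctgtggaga

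BAMBI was the only one of these 5 windows with GGCGCC, which it holds 3 times, within bases -209 to -176 counted from the start site as +1. Of all 35116 promoters in the table, 19.2% hold GGCGCC. BAMBI also has 4 GGAGCC matches and 2 CAGAC matches. ID1 and ID4 each have 2 GGAGCC matches and ID3 has 1, a motif that 36.0% of all promoters hold. CAGAC occurs once in ID3 and once in ID4, and in 45.3% of all promoters. ID1 has overlapping TATAAA matches on opposite strands from base -33 to -26, and ID4 has 1 from -29 to -24, against 11.5% of all promoters. ID2 has none of the SMAD-type motifs in this window but holds CCAAT 3 times, and 34.6% of all promoters hold CCAAT at least once. These are matches of letters only.

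Per kilobase of the longest annotated transcript, which allows levels of different genes to be set side by side, the ID genes stood above the other members in both lines. In H1 the levels were 91.0 ± 18.3 CPM per kb for ID1, 90.4 ± 23.6 for ID3, 60.1 ± 12.5 for ID4 and 51.9 ± 8.74 for ID2 (SD over the 8 libraries, all hairpins together). BMP7 followed at 10.3 ± 1.89 CPM per kb and BMP4 at 4.65 ± 1.71. The inhibitors NOG, SMAD7, BAMBI and SMAD6 stood lowest, at 3.66 ± 1.22, 2.78 ± 0.729, 2.03 ± 0.771 and 1.36 ± 0.223 CPM per kb. Of the neighbours in this order, ID2 and BMP7, and BMP7 and BMP4, lie further apart than the sum of their SDs, and the other neighbouring pairs do not. In MEL1 the order was ID1 (175 ± 48.2 CPM per kb), ID2 (85.9 ± 8.06), ID3 (76.2 ± 5.73), ID4 (55.2 ± 7.03), BMP4 (11.8 ± 2.26), BMP7 (9.46 ± 2.27), BAMBI (7.60 ± 2.11), NOG (2.77 ± 1.64), SMAD7 (2.51 ± 0.430) and SMAD6 (1.92 ± 0.581), each over the 4 libraries. There the neighbours ID2 and ID3, BMP4 and BMP7, BMP7 and BAMBI, NOG and SMAD7, and SMAD7 and SMAD6 lie within the sum of their SDs.

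**Figure D1:**
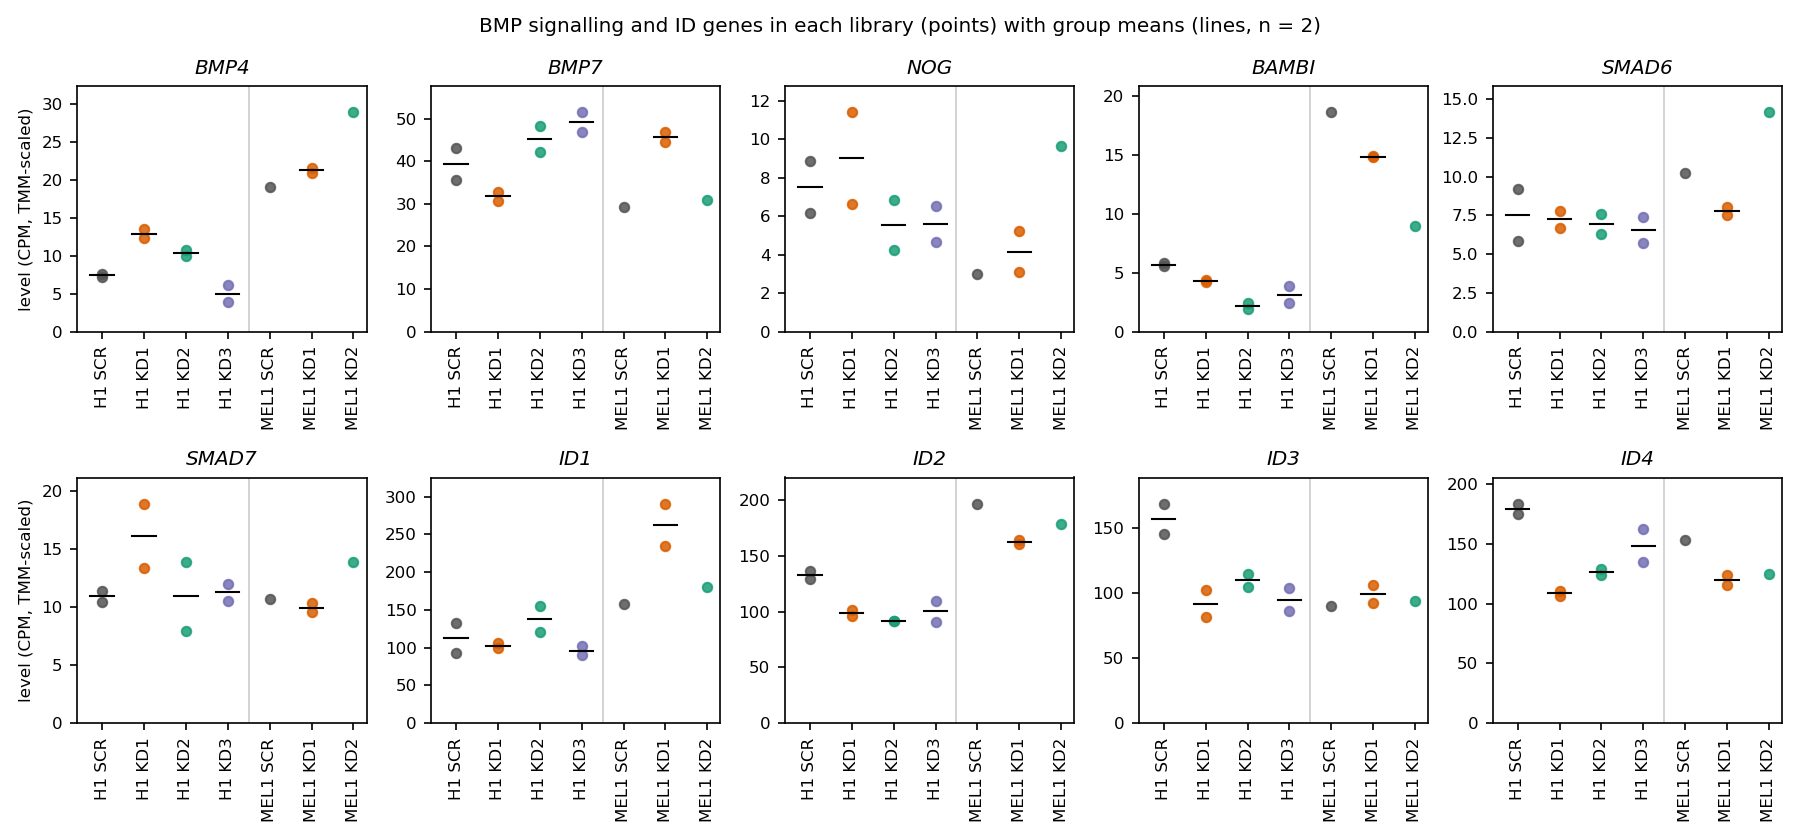
Level of each of the 10 genes in each library (points, CPM after TMM scaling) by cell line and hairpin, with lines for the mean of groups of 2. BAMBI, ID2, ID3 and ID4 lie lower in all 6 H1 knockdown libraries than in both H1 SCR libraries, while ID1 overlaps.

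In H1, 3 of the 4 ID genes and the pseudoreceptor gene BAMBI were lower with the METTL14 hairpins, and ID1 was not. Averaged over KD1, KD2 and KD3, ID3 fell by 0.67 on the log2 scale, ID4 by 0.50, ID2 by 0.45 and BAMBI by 0.88. The count was 0 of 10 members called higher and 4 called lower. Of all genes tested, 2.23% were called higher, 4.93% lower and 7.16% in either direction. That background includes genes averaging below 1 CPM, while the lowest member, NOG, averaged 6.36 CPM over the 12 libraries. With genes averaging below 1 CPM left out, 11.9% of the remaining 16743 were called, and 4 members. The median change was -0.16 over the 10 members and 0.01 over all genes tested. All 4 calls rest on the 2 H1 SCR libraries: leaving out SCR replicate 1 kept only ID4 past the threshold, and leaving out SCR replicate 2 kept none. The error of this average comes from the spread between libraries of the same group, so differences between hairpins do not enter it. In a fit of the H1 libraries alone with the hairpins pooled, such differences counted as spread. That fit called 0 of 10 members, and 0.794% of the 22027 genes tested in it.

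ID3 (ENSG00000117318; GRCh38 chr1:23557918-23559794, minus strand) encodes an ID protein expressed widely in progenitor cells. It stood at 168 and 145 CPM in H1 SCR, at 81.0 and 102 in KD1, at 115 and 104 in KD2, and at 104 and 85.9 in KD3. The groups do not overlap, and the highest knockdown value, in KD2, was below the lower SCR value. The H1 average was -0.67 ± 0.12 (SE; adjusted p = 0.0107), which leaves ID3 at 63.0% of the SCR mean. By hairpin, ID3 passed the test with KD1 (-0.77 ± 0.15, adjusted p = 0.0108) and KD3 (-0.73 ± 0.15, adjusted p = 0.0291), and had a value of -0.52 ± 0.15 with KD2 (adjusted p = 0.114).

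ID4 (ENSG00000172201; chr6:19837386-19840684, plus strand), known for its part in neural progenitors, stood at 175 and 184 CPM in H1 SCR. It stood at 107 and 111 CPM in KD1, at 124 and 129 in KD2 and at 135 and 162 in KD3. KD1 was lowest and KD3 nearest to SCR, with no knockdown value reaching an SCR value. The H1 average was -0.50 ± 0.09 (adjusted p = 0.0123), or 71.4% of the SCR mean. Only KD1 passed on its own (-0.72 ± 0.11, adjusted p = 0.00543), against -0.50 ± 0.11 with KD2 (adjusted p = 0.0553) and -0.27 ± 0.11 with KD3 (adjusted p = 0.226). The difference between hairpins was not past the threshold for ID4 (adjusted p = 0.0982).

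ID2 (ENSG00000115738; chr2:8678845-8684453, plus strand), a target of BMP and of other pathways, stood at 137 and 129 CPM in H1 SCR. It stood at 96.5 and 101 CPM in KD1, at 91.5 and 91.9 in KD2 and at 91.0 and 110 in KD3. Its decrease was the most even across hairpins among the called members: -0.43 ± 0.11 with KD1 (adjusted p = 0.0345), -0.53 ± 0.11 with KD2 (adjusted p = 0.0438) and -0.40 ± 0.11 with KD3 (adjusted p = 0.0801). The H1 average was -0.45 ± 0.09 (adjusted p = 0.0163), or 73.0% of the SCR mean.

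BAMBI (ENSG00000095739; chr10:28677342-28682939, plus strand) encodes a receptor-like membrane protein without a kinase domain that damps BMP and TGF-beta signalling and is itself induced by BMP. It stood at 5.53 and 5.83 CPM in H1 SCR, at 4.22 and 4.34 in KD1, at 1.95 and 2.42 in KD2 and at 3.84 and 2.43 in KD3. All 6 knockdown values were below both SCR values, and KD2 held the lowest. These levels rest on 91 to 241 estimated counts per H1 library. The H1 average was -0.88 ± 0.18 (adjusted p = 0.0188), or 56.3% of the SCR mean. KD2 passed on its own (-1.38 ± 0.23, adjusted p = 0.0195), against -0.86 ± 0.23 with KD3 (adjusted p = 0.0726) and -0.41 ± 0.23 with KD1 (adjusted p = 0.282).

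ID1 (ENSG00000125968; chr20:31605283-31606515, plus strand), often used as a readout of BMP activity, stood at 133 and 92.3 CPM in H1 SCR. Its knockdown values were 99.4 and 106 CPM in KD1, 120 and 155 in KD2 and 101 and 89.8 in KD3. The groups overlap, and the 2 SCR libraries lie further apart than the means of SCR and KD1. The H1 average was -0.02 ± 0.15 (adjusted p = 0.957), and the knockdown mean was 99.6% of the SCR mean.

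All 6 knockdown values lay below both SCR values for 4 of the 10 members (BAMBI, ID2, ID3 and ID4), an arrangement seen in 11.7% of all genes tested. No member had all 6 above both, against 8.61% of all genes.

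**Figure D2:**
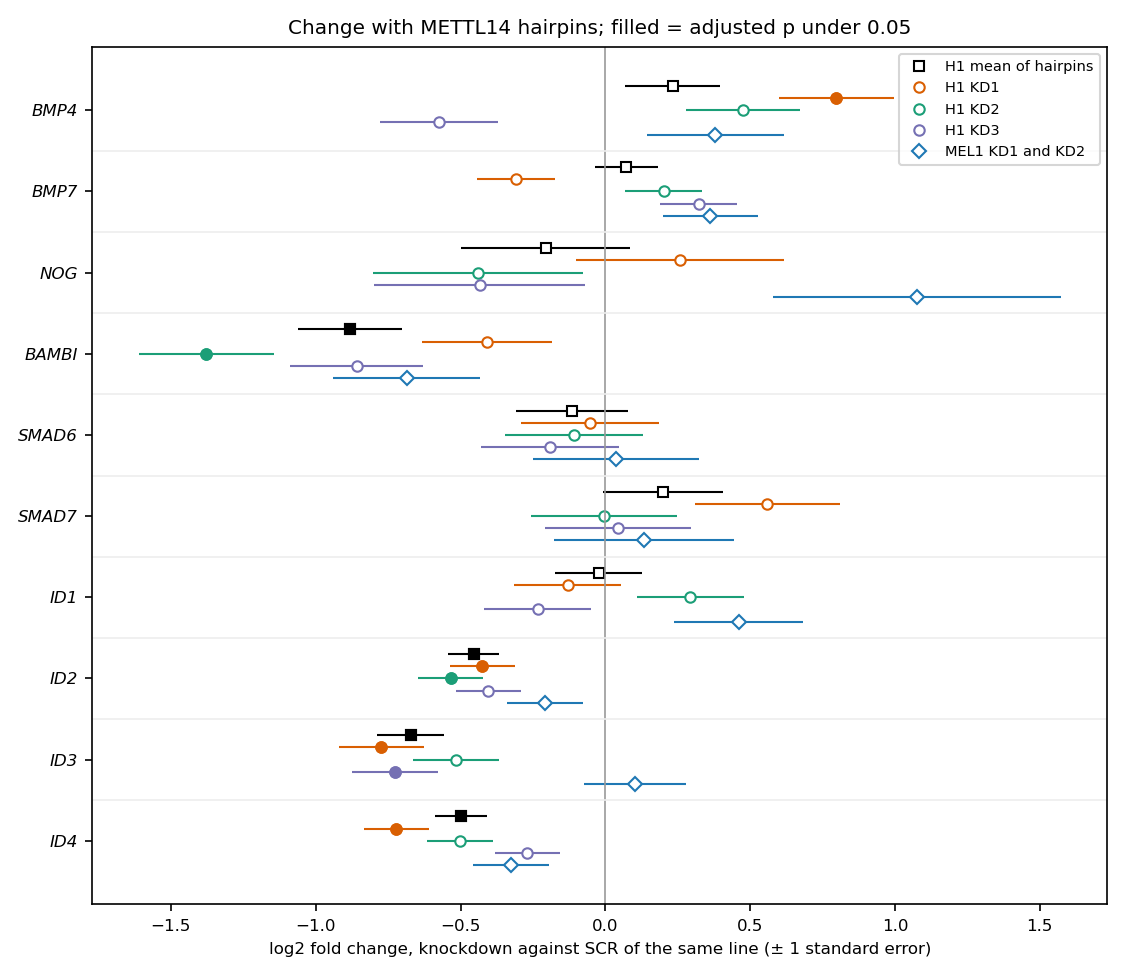
Fitted log2 fold change of each gene against the SCR libraries of the same line, with bars of 1 standard error, for the H1 average, each H1 hairpin and MEL1; filled symbols have an adjusted p under 0.05. The H1 comparisons share the same 2 SCR libraries, and ID3 lies at -0.67 in the H1 average and at 0.10 in MEL1.

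Among the ligands, BMP4 (ENSG00000125378; chr14:53949736-53958761, minus strand), the ligand most used to drive mesoderm and surface ectoderm from stem cells, differed between hairpins. It stood at 7.66 and 7.20 CPM in H1 SCR, at 12.4 and 13.5 in KD1, at 9.93 and 10.7 in KD2 and at 6.12 and 3.87 in KD3. KD1 and KD2 lay above SCR and KD3 below it, without overlap between the 4 groups. BMP4 was called higher with KD1 (0.80 ± 0.20, adjusted p = 0.0272), against 0.47 ± 0.20 with KD2 (adjusted p = 0.266) and -0.57 ± 0.20 with KD3 (adjusted p = 0.151). A test of the difference between the hairpins, which does not use SCR, gave an adjusted p of 0.012, with KD3 lower than KD1 by a log2 difference of -1.37. Leaving out either KD1 library or KD3 replicate 2 ended this call (adjusted p up to 0.0666), and leaving out any 1 SCR or KD1 library ended the KD1 call (adjusted p up to 0.148). The H1 average was 0.23 ± 0.16 (adjusted p = 0.439).

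BMP7 (ENSG00000101144; chr20:57168748-57266629, minus strand), a ligand with wide embryonic expression, also differed between hairpins, by a smaller margin. It stood at 43.1 and 35.6 CPM in H1 SCR, at 32.8 and 30.7 in KD1, at 48.2 and 42.2 in KD2 and at 51.5 and 46.8 in KD3. KD1 lay below SCR, and KD2 and KD3 reached above it. The test between hairpins gave an adjusted p of 0.0483, with log2 differences of 0.51 for KD2 over KD1 and 0.63 for KD3 over KD1. That call was past the threshold in 7 of 20 alternative settings, with adjusted p up to 0.286. No single hairpin passed for BMP7 against SCR, and the H1 average was 0.07 ± 0.11 (adjusted p = 0.751). Of the 10 members, these 2 ligands were the ones called between hairpins, where 3.54% of all genes were. That share was 5.95% with genes averaging below 1 CPM left out.

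By hairpin, KD1 had 4 of 10 members called where 11.1% of all genes were: BMP4 was higher, as were 4.25% of all genes, and ID2, ID3 and ID4 were lower, as were 6.83%. KD2 had 2 of 10 called where 1.54% of all genes were: none was higher (0.691% of all genes), and BAMBI and ID2 were lower (0.851%). KD3 had 1 of 10 called where 2.98% of all genes were: none was higher (1.19%), and ID3 was lower (1.79%). With genes averaging below 1 CPM left out, the shares of genes called were larger, at 18.4%, 2.48% and 5.54% with KD1, KD2 and KD3. The median member change was -0.22, -0.27 and -0.34 with KD1, KD2 and KD3, against -0.00, 0.01 and 0.02 over all genes. Each count fell to 0 when 1 library was left out: for KD1 without KD1 replicate 1, for KD2 without either SCR or either KD2 library, and for KD3 without either SCR library or KD3 replicate 2. DESeq2 gave an adjusted p to only part of the genes. With KD1, KD2 and KD3 it called 20.5% of 17657, 6.32% of 18140 and 9.91% of 17174 such genes. It called 4 members with KD1, 4 with KD2 (BAMBI, ID2, ID3 and ID4) and 3 with KD3 (BAMBI, ID2 and ID3).

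The secreted antagonist noggin, NOG (ENSG00000183691; chr17:56593699-56595590, plus strand), which binds BMPs and keeps them from their receptors, varied as much within groups as between them. It stood at 8.89 and 6.19 CPM in H1 SCR, at 11.4 and 6.63 in KD1, at 4.26 and 6.85 in KD2 and at 6.53 and 4.64 in KD3. The groups overlap, and the H1 average was -0.21 ± 0.29 (adjusted p = 0.732).

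The inhibitory SMADs, which block receptor SMADs and are induced by the pathway they inhibit, passed no test against SCR. SMAD6 (ENSG00000137834; chr15:66702228-66782848, plus strand) stood at 9.17 and 5.83 CPM in H1 SCR and between 5.73 and 7.76 CPM in the 6 H1 knockdown libraries, with an H1 average of -0.12 ± 0.19 (adjusted p = 0.777). SMAD7 (ENSG00000101665; chr18:48919853-48952052, minus strand) stood at 11.4 and 10.4 CPM in H1 SCR and between 7.94 and 18.9 CPM with the hairpins, with an H1 average of 0.20 ± 0.21 (adjusted p = 0.62). The SCR libraries alone differ 1.57-fold for SMAD6, so a change of the size seen for ID2 would lie within their range.

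In MEL1, 0 of 10 members passed the edgeR test of KD1 and KD2 against the single SCR library, where 4.45% of all genes did (2.93% higher and 1.51% lower). In that test 3 members (BMP7, BAMBI and ID4) had an unadjusted p under 0.05, near the 22.7% of all genes that had, and DESeq2 also called 0. The test assumes that the lone SCR library, which is also the shallowest, varies like the other groups. BAMBI stood at 18.6 CPM in MEL1 SCR and at 14.8, 14.9 and 9.0 CPM in the KD1 and KD2 libraries, in that order, with a log2 change of -0.69 ± 0.25 (adjusted p = 0.138). ID4 stood at 153 CPM in SCR and at 124, 115 and 125 CPM, with a change of -0.33 ± 0.13 (adjusted p = 0.172). ID2 stood at 197 CPM in SCR and at 161, 165 and 179 CPM, with a change of -0.21 ± 0.13 (adjusted p = 0.376). These 3 genes had every MEL1 knockdown value below SCR, an arrangement found in 25.7% of all genes, while 5 members (BMP4, BMP7, NOG, ID1 and ID3) had every value above SCR, as had 31.6%. They were also the 3 members below the SCR of their line in all 9 knockdown libraries, against 3.96% of all genes. No member was above the SCR of its line in all 9, against 3.18%.

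ID3 and ID1 lay the other way in MEL1. ID3 stood at 89.7 CPM in MEL1 SCR and at 92.3, 106 and 93.6 CPM with the hairpins, with a log2 change of 0.10 ± 0.18 (adjusted p = 0.792). ID1 stood at 158 CPM in SCR and at 234, 291 and 180 CPM, with a change of 0.46 ± 0.22 (adjusted p = 0.255). NOG stood at 3.0 CPM in SCR, from 44 estimated counts, and at 3.09, 5.22 and 9.63 CPM, with a change of 1.08 ± 0.50 (adjusted p = 0.235). A test of whether KD1 and KD2 acted unequally in the 2 lines called 0 of 10 members, where 0.598% of all genes were; 1 member, ID3, had an unadjusted p under 0.05, as had 17.2% of all genes, with a difference of 0.75 ± 0.22 on the log2 scale (adjusted p = 0.125, edgeR quasi-likelihood test), and DESeq2 also called 0. The median of all genes in that comparison was 0.11, so ID3 lay above a shifted centre.

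The remaining MEL1 values did not pass the test. BMP4 stood at 19.1 CPM in SCR and at 21.6, 21.0 and 28.9 CPM in the KD1 and KD2 libraries. BMP7 stood at 29.3 CPM in SCR and at 44.6, 47.0 and 31.0 CPM, with both KD1 values high and KD2 near SCR. SMAD6 stood at 10.2 CPM in SCR and at 8.06, 7.49 and 14.1 CPM, and SMAD7 at 10.7 CPM and at 9.57, 10.3 and 13.9 CPM, so that for both genes KD1 was below SCR and KD2 above.

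Over both lines together, with the line as a covariate, edgeR called 0 of 10 members, where 0.213% of all genes were called, 0.0562% higher and 0.157% lower. BAMBI, ID2, ID3 and ID4 had an unadjusted p under 0.05, as had 15.7% of all genes, with log2 changes of -0.73 ± 0.25, -0.38 ± 0.09, -0.43 ± 0.15 and -0.44 ± 0.12 and adjusted p of 0.173, 0.0986, 0.173 and 0.107. DESeq2 called 2 members (ID2 and ID4) where it called 6.53% of the 19070 genes to which it gave an adjusted p. A fit of the 7 group means called these 2 together with BAMBI and ID3 where it called 10.8% of all 24898 genes.

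Between MEL1 and H1 at matched hairpins, 6 of 10 members were called, a share near the 49.1% of all genes that were, so the count says nothing particular about the members. Of these 5 were higher in MEL1, as were 23.0% of all genes, and 1 was lower, as were 26.2%. BAMBI was higher in MEL1 by 1.85 ± 0.15 on the log2 scale, BMP4 by 1.19 ± 0.13, ID2 by 0.75 ± 0.07, ID1 by 0.74 ± 0.12 and SMAD6 by 0.53 ± 0.16, with adjusted p of 1.5e-06, 1.64e-05, 7.86e-06, 0.000474 and 0.0169. ID3 was lower in MEL1 on average over SCR, KD1 and KD2, by -0.31 ± 0.10 (adjusted p = 0.0244). That call held in 13 of 17 alternative settings and ended without any 1 of H1 SCR replicate 1, H1 KD1 replicate 2, H1 KD2 replicate 1 or MEL1 KD1 replicate 1. The ID3 difference was largest in SCR, at 89.7 CPM in MEL1 against a mean of 157 CPM in H1. With KD2 it was 93.6 against 110 CPM, and with KD1 MEL1 was higher, at 99.0 against 91.6 CPM. Cell type markers differed between the lines as well: 5 of 5 pluripotency markers and 6 of 6 non-neural ectoderm markers were called higher in MEL1, and 5 of 5 neural progenitor markers and 4 of 4 neuron markers lower. The pluripotency markers summed to 2108 to 3479 CPM in MEL1 and 1135 to 1374 CPM in H1, the non-neural ectoderm markers to 74.4 to 195 against 20.5 to 26.3 CPM, the neural progenitor markers to 659 to 949 against 1162 to 1684 CPM and the neuron markers to 62.8 to 103 against 202 to 302 CPM. The part of these markers in the line differences of the members was not tested. This comparison cannot be told apart from anything else that differed between the cultures of the lines.

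The ID genes together, summed per kilobase, stood at 384 and 332 CPM per kb in H1 SCR and at 238 to 310 CPM per kb in the 6 H1 knockdown libraries (median 266), without overlap. In MEL1 the sum was 362 CPM per kb in SCR and 361 to 450 CPM per kb in the knockdown libraries. The make-up of the sum also differed: ID3 gave 34.9% to 35.1% of it in H1 SCR and 26.0% to 31.9% in H1 knockdown libraries, and ID1 gave 22.5% to 28.05% in SCR and 27.5% to 40.7% in knockdown libraries. In MEL1, ID1 gave 35.4% in SCR and 40.3% to 52.4% in knockdown libraries. These sums are descriptions with no test.

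**Figure D3:**
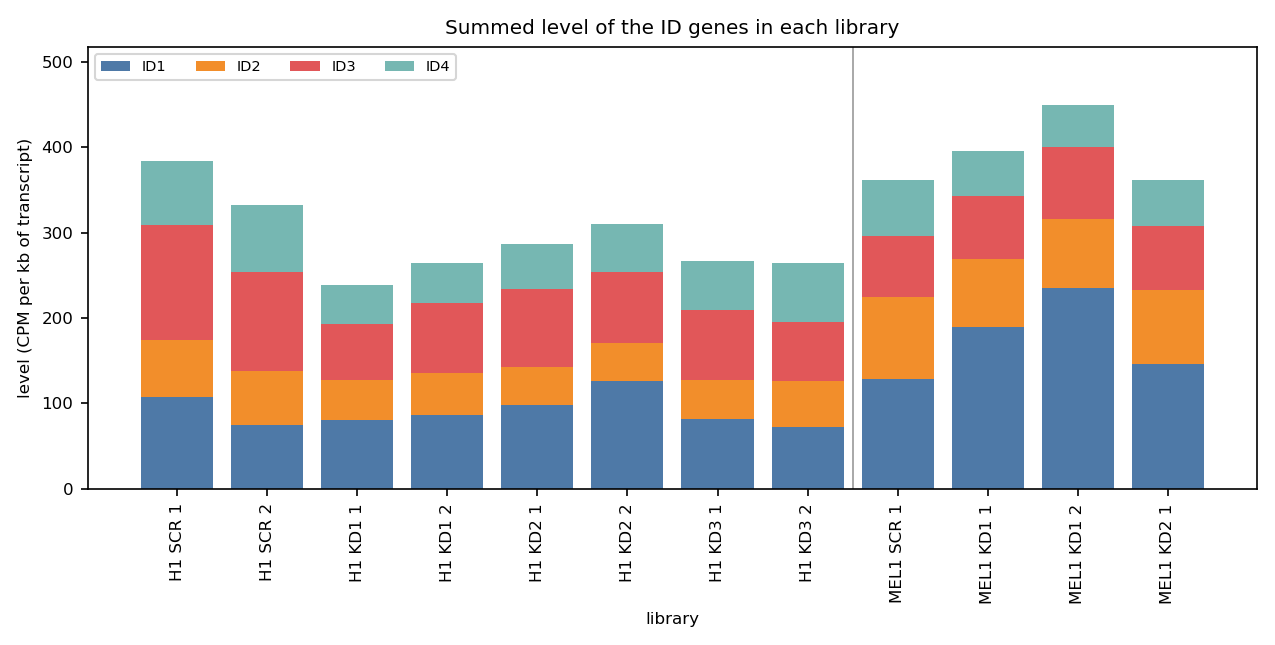
Summed level of ID1, ID2, ID3 and ID4 in each library, in CPM per kb of transcript, stacked by gene (1 bar per library, H1 left of the line and MEL1 right). The 2 H1 SCR bars reach 384 and 332 and the H1 knockdown bars 238 to 310, while MEL1 bars reach 361 to 450, with ID1 the largest part.

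The rest of the pathway was read through 6 lists with 83 genes, of which 80 were tested. In the H1 average, 3 rose and 5 fell, which is 8 of 80, where 7.16% of all genes were called; the median was 0.03 over the lists and 0.01 over all genes. The receptors and co-receptors had 0 of 12 called and the SMADs and their regulators 0 of 11. The calls lay in the other lists: 1 of 11 ligands, 2 of 20 extracellular antagonists and modulators, 4 of 14 other BMP response genes and 1 of 12 bHLH genes.

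GDF7, a roof plate ligand of the BMP family, fell by 2.69 on the log2 scale in the H1 average (SE 0.40, adjusted p = 0.00939). It stood at 12.9 and 6.62 CPM in H1 SCR, at 8.24 and 7.52 in KD1, at 0.834 and 0.577 in KD2 and at 0.188 and 1.02 in KD3. KD1 was within the SCR range and KD2 and KD3 far below it, and the hairpins differed (adjusted p = 0.0133). BMP2, the ligand closest to BMP4, showed a like arrangement, with 11.1 and 7.37 CPM in SCR, 12.9 and 10.5 in KD1, 4.15 and 5.31 in KD2 and 4.65 and 4.93 in KD3. BMP2 differed between hairpins (adjusted p = 0.0114) and had an H1 average of -0.52 ± 0.18 (adjusted p = 0.102). GDF3, a ligand of pluripotent cells, differed between hairpins too (adjusted p = 0.0279) at under 1 CPM in every H1 library. That call held in 14 of 20 alternative settings.

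GREM1, a secreted BMP antagonist, fell by 0.99 in the H1 average (SE 0.16, adjusted p = 0.00695). Its levels were 16.4 and 18.9 CPM in SCR, 14.4 and 10.2 in KD1, 13.3 and 10.5 in KD2 and 5.0 and 4.54 in KD3, so that KD3 was lowest. NBL1, another secreted antagonist of the same family, rose by 1.11 (SE 0.21, adjusted p = 0.0183), from 43.4 and 30.1 CPM in SCR to between 63.2 and 107 CPM in the 6 knockdown libraries. It was the single list gene called over both lines (1.22, adjusted p = 0.0313), with 0.818 CPM in MEL1 SCR and 2.45 to 3.35 CPM in MEL1 knockdown libraries, a call that held in 13 of 21 alternative settings. NBL1 overlaps a readthrough gene, and estimated counts divide shared reads between such genes, so its value is uncertain. CER1, a secreted antagonist of BMP and Nodal, differed between hairpins (adjusted p = 0.00131), with 2.38 and 2.37 CPM in SCR, 0.507 to 0.749 CPM in KD1 and KD2 and 5.27 and 5.85 CPM in KD3.

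Among other response genes, the homeobox genes MSX1 and MSX2, both BMP targets, and the T-box gene TBX3 fell in H1. MSX1 stood at 54.8 and 39.2 CPM in SCR and at 20.1 to 27.6 CPM in the 6 knockdown libraries, a change of -1.03 ± 0.14 (adjusted p = 0.00415). MSX2 stood at 26.5 and 18.1 CPM in SCR and at 9.10 to 16.9 CPM with the hairpins (-0.64 ± 0.16, adjusted p = 0.0372). TBX3 changed by -1.49 ± 0.37 (adjusted p = 0.0379) at a mean of 0.552 CPM over all libraries. In MEL1 it was also lower, at 1.09 CPM in SCR and 0.402 to 0.652 CPM with the hairpins. DLX3, a homeobox gene of surface ectoderm, rose in the H1 average (0.75 ± 0.19, adjusted p = 0.0384) through KD2 alone, at 7.10 and 6.57 CPM against 1.69 and 1.55 in SCR and 1.37 to 2.13 in KD1 and KD3. DLX5, its relative, had 8.56 and 7.04 CPM in KD2 against 3.41 and 2.95 in SCR and 0.910 to 2.31 in KD1 and KD3. Both differed between hairpins, with adjusted p of 0.00101 for DLX3 and 0.000988 for DLX5. OLIG2, a bHLH factor of ventral neural progenitors, rose by 1.20 (SE 0.32, adjusted p = 0.046), from 1.54 and 0.894 CPM in SCR to 1.54 to 3.42 CPM. Leaving out either H1 SCR library ended the H1 calls of MSX2, TBX3, DLX3 and OLIG2. Those calls held in 12 of 20, 11 of 18, 12 of 20 and 10 of 20 alternative settings. Leaving out SCR replicate 2 ended the H1 calls of GREM1 and NBL1. GDF7 and MSX1 stayed past the threshold in H1 in all 20 alternative settings. Differences between hairpins do not enter the error in any of these settings, and GDF7 with KD1 was within the SCR range. In MEL1, GDF7 stood at 3.0 CPM in SCR and above it, at 9.87, 6.49 and 13.6 CPM, in the KD1 and KD2 libraries. MSX1 stood there at 12.4 CPM in SCR and at 8.49, 9.07 and 35.6 CPM. MSX2 stood at 38.1 CPM and at 31.2, 25.3 and 97.3 CPM. MSX1 and MSX2 were thus below SCR with KD1 and above it with KD2.

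Between hairpins, 11 of the 80 list genes were called, where 3.54% of all genes were. Besides those above they included the co-receptor RGMB (adjusted p = 0.0101), the SMAD-binding zinc finger ZNF423 (adjusted p = 0.0217), the bHLH gene ATOH8 (adjusted p = 0.0436) and GREM1 (adjusted p = 0.0102). The ATOH8 call held in 10 of 20 alternative settings and the ZNF423 call in 16 of 20. RGMB and ZNF423 were higher in both KD3 libraries than in any KD1 or KD2 library. By single hairpin, 3 list genes were higher and 9 lower with KD1 (11.1% of all genes called), 3 and 4 with KD2 (1.54%), and 1 and 4 with KD3 (2.98%). In MEL1 1 list gene was called where 4.45% of all genes were, HES5, named after its values were seen, and it is listed at 0 in the SCR library.

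**Figure D4:**
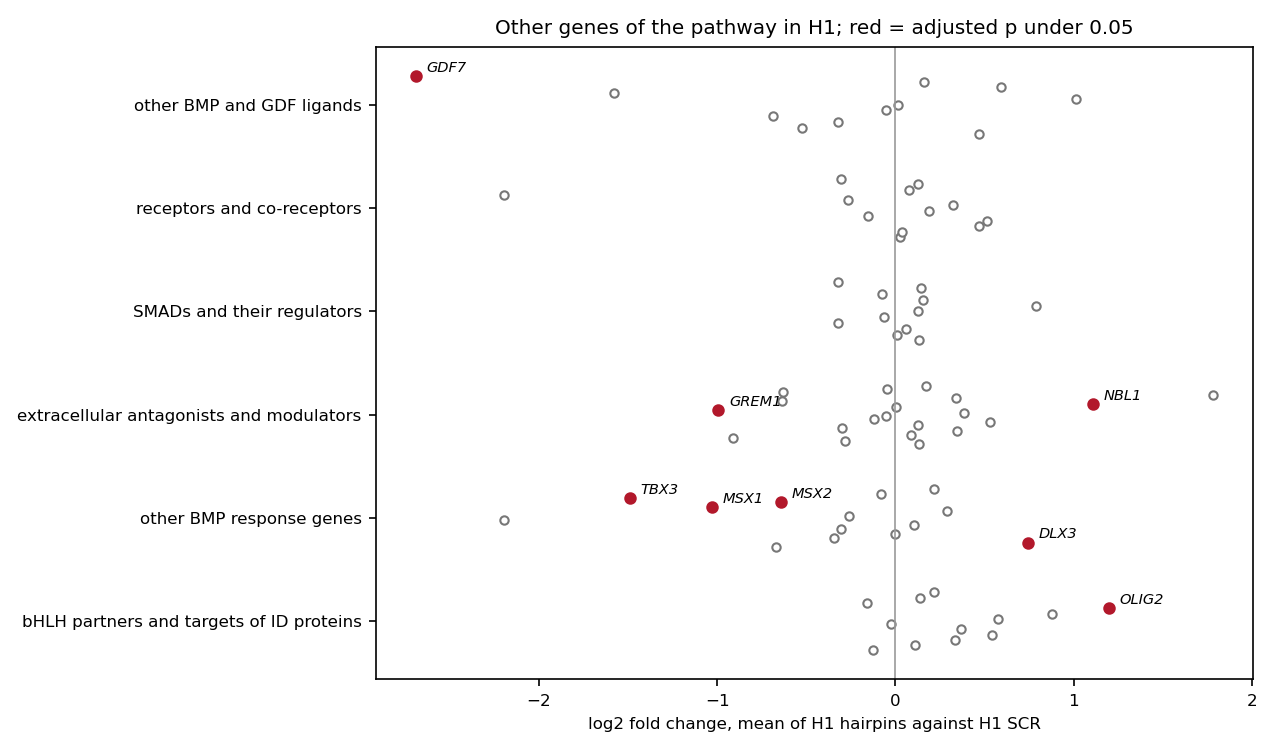
Fitted log2 fold change in the H1 average for each tested gene of the 6 pathway lists (1 point per gene, rows are lists); red points have an adjusted p under 0.05 and are named. Receptors and SMADs have no red point, and GDF7 lies farthest left at -2.69.

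The libraries are bulk RNA, in which fewer cells of a type and less RNA per cell cannot be told apart, and several marker lists moved with the hairpins in H1. Marker counts below are calls in the H1 average, where 2.23% of all genes were called higher and 4.93% lower. With genes averaging below 1 CPM left out, 11.9% were called in either direction. The summed level of 6 dorsal neural and roof plate markers, which include MSX1, was 182 to 216 CPM in H1 SCR and 120 to 141 CPM in H1 knockdown libraries, and 4 of the 6 fell. The 4 endothelial markers summed to 159 to 163 CPM in SCR and 66.1 to 91.2 CPM with the hairpins, nearly all from KDR, the 1 of 4 that fell. The 4 neuron markers summed to 298 to 302 CPM against 202 to 262 CPM (1 of 4 fell). The 5 neural progenitor markers summed to 1162 to 1209 CPM against 1250 to 1684 CPM (2 of 5 rose). The 4 neural crest markers overlapped in sum (197 to 214 CPM against 144 to 226 CPM) although 2 of 4 fell, and the 5 pluripotency markers overlapped (1135 to 1252 CPM against 1156 to 1374 CPM) although 3 of 5 fell. Most of the pluripotency sum in H1 came from LIN28A (827 to 1132 CPM), which was not called. The 3 that fell were POU5F1, NANOG and ZFP42. Non-neural ectoderm markers summed to 20.5 to 26.3 CPM against 21.1 to 25.6 CPM, with 0 of 6 called. Mesoderm markers summed to at most 8.91 CPM and endoderm markers to at most 1.33 CPM in any H1 library, and no marker of any list was at 0 in all libraries. In MEL1 the dorsal neural sum was 67.9 CPM in SCR and 45.7 to 203 CPM with the hairpins, the endothelial sum 111 against 62.7 to 103 CPM, and the pluripotency sum 3036 against 2108 to 3479 CPM. The MEL1 neuron sum was 62.8 CPM in the single SCR library and 91.5 to 103 CPM with the hairpins. The MEL1 neural progenitor sum was 949 against 659 to 741 CPM, so both sums moved opposite to H1. The part of these markers in the levels of BAMBI and the ID genes was not tested.

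With the line means removed, the ID genes did not vary as a block over the 12 libraries, of which 8 are H1. Pearson's r, pooled over both lines, was 0.81 between ID2 and ID4, 0.61 between ID2 and ID3 and 0.55 between ID3 and ID4. ID1 had r of -0.32 with ID2, -0.30 with ID4 and 0.34 with ID3. No r was computed for either line alone, and in MEL1 ID2 was highest in SCR while ID3 was lowest there. These correlations share libraries, scaling and the hairpin groups and are given as descriptions.

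Of 14952 genes with a symbol and a mean of at least 1 CPM, those most like each ID gene over the 12 libraries were found by the same measure. For ID1 they were GALM (r = 0.931), VWA1 (0.893) and DMRTC1B (0.885). For ID2 they were AKR1C2 (0.906), AKR1C3 (0.897) and PID1 (0.896). For ID3 they were SAP30BP (0.970), ARPC4 (0.926) and TOMM34 (0.925). For ID4 they were DUSP6 (0.961), FANCL (0.954) and TFCP2 (0.949). No other member was among them, and the AKR1C genes and DMRTC1B have close copies that make their estimated counts uncertain.

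N6-methyladenosine is placed at adenosines in a short sequence context, of which GGACT is the best known form. In the longest GENCODE 29 transcript, BMP4 has 6 GGACT matches (3.13 per kb) and ID3 has 3 (2.40 per kb), above 99.0% and 96.2% of the 16518 tested protein-coding genes, whose median is 0.936 per kb. BAMBI has 2 (1.06 per kb), ID2 has 2 (0.980 per kb), ID4 has 1 (0.427 per kb) and ID1 has 0. Of the members not called in the H1 average, BMP7 has 6 (1.495 per kb, above 79.7% of genes), SMAD6 has 6 (1.154 per kb), SMAD7 has 4 (0.903 per kb) and NOG has 1 (0.529 per kb); BMP4 and ID1 were also not called there. Of all these genes 92.8% hold at least 1. The members that fell in H1 have 1 to 3 matches and the others 0 to 6, and methylation itself was not measured here.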

How the data were processed

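The authors deposited 1 table of estimated counts by Ensembl gene identifier, and library totals differ, so no scaling is visible. In each library 14.8% to 20.8% of the values are not whole. The submitters' processing notes name fastp and kallisto; their versions, the genome build, the annotation and the strand setting are not given in the sources used here. Such counts share out reads among similar genes, so close copies and overlapping genes are uncertain. Depth limits the low genes most: the least covered value of a member, NOG in the MEL1 SCR library, rests on 44 counts. Libraries were grouped by the labels' cell line and treatment.

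Counts were rounded to whole numbers, scaled by TMM, filtered with filterByExpr over the 7 groups and tested with edgeR 4.0.16 (robust quasi-likelihood F-test; limma 3.58.1, R 4.3.3), with p-values adjusted by Benjamini and Hochberg over all 24898 genes and called under 0.05. Fits were 7 group means over all 12 libraries, or knockdown with the line as a covariate. The procedure was run on simulated counts in which each changed gene moved equally in all knockdown libraries. Hairpins or lines that differ in effect were not simulated. Symbols came from a name table (41981 identifiers had one), and gene positions, transcript lengths and GC contents from GENCODE 29 on GRCh38, matched by identifier. Alternatives were DESeq2 1.42.0, other scalings and filters, a non-robust fit, GC content and length trends removed, H1 alone, and each library left out.

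The text names all 10 members, the list genes called over both lines, in the H1 average or between hairpins (at most the 5 of lowest adjusted p per list and comparison), and the 3 genes most like each ID gene by Pearson's r of log2(CPM + 0.5). The members, gene lists and tests were chosen with earlier results of these data known. A list gene that met the rule for naming is not reported here.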

Additional observations from a re-analysis of the deposited data

Results flagged for a closer look

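NOG stood at 11.4 CPM in H1 KD1 replicate 1, further from the other 5 H1 knockdown libraries than a test for a value that stands apart allows: the gap was 0.637 of the whole range, against a critical value of 0.625. Among 10 genes checked in the same 6 libraries it was the only one, and chance alone is set to give about 1 in 20 such groups. The test treats the 6 libraries as 1 group, although they come from KD1, KD2 and KD3.

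BMP4 differed between the H1 hairpins (adjusted p = 0.012, edgeR quasi-likelihood F-test), with means higher in KD1 and KD2 than in KD3. BMP7 differed between them in another order (adjusted p = 0.0483), with KD1 lowest.

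ID3 was lower than SCR in all 6 H1 knockdown libraries and higher than SCR in all 3 MEL1 knockdown libraries. The difference between the lines for KD1 and KD2 was 0.75 on the log2 scale and did not pass the threshold (adjusted p = 0.125, edgeR quasi-likelihood test).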

How the results depend on the processing

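No paired analysis was possible because the labels carry no replicate numbers. Of 1720 member values recomputed, 1619 kept their side of the threshold and their direction or moved by less than their error, 55 fell out of the calls, 31 entered them and 15 moved; 38 had the opposite sign, none of them called in either setting. The count of members called over both lines, 0 at first, was 4 with the fit of 7 group means and 2 with DESeq2. In these settings the share of genes called went from 0.213% to 10.8% and 6.53%, the last over the 19070 genes with an adjusted p. In the settings named next that raised a count, the share of all genes called rose too. For KD2 the count of 2 became 4 with DESeq2, 4 with no filter and 1 with the non-robust fit. For KD3 the count of 1 became 3 with DESeq2, 2 with no filter and 2 with the GC content and length trends removed. Between hairpins the count of 2 became 4 with DESeq2, 4 with no filter, 4 with the trends removed, and 1 with RLE scaling, upper-quartile scaling, the non-robust fit or H1 alone. With no filter, 1 member was called in MEL1 (NOG) and 1 in the difference between lines (ID3). Leaving out 1 library at a time gave 0 to 4 members in the H1 average and with KD1, 0 to 3 with KD2 and with KD3, 0 to 2 between hairpins, 5 to 6 between lines, and 0 in each of the other comparisons. The 3 MEL1 comparisons have no value without MEL1 SCR or MEL1 KD2, which are groups of 1. In the H1 average, the adjusted p over 20 settings reached 0.138 for BAMBI, 0.111 for ID2, 0.0726 for ID3 and 0.124 for ID4, with 17, 18, 18 and 19 settings past the threshold and every log2 change negative. The BMP4 call between hairpins held in 17 of 20 settings, and NBL1 over both lines in 13 of 21. The shallow MEL1 SCR library limits every MEL1 comparison.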

Other observations

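The ratio of ID3 to ID1, per kilobase, was 1.25 and 1.55 in the 2 H1 SCR libraries and 0.663 to 1.01 in the 6 H1 knockdown libraries. In MEL1 it was 0.560 in SCR and 0.359 to 0.513 in the 3 knockdown libraries. The ratio was thus below the SCR of the same line in all 9 knockdown libraries. It was chosen after the values were seen and has no test.

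Outside the ID genes, NOG and SMAD7 were the pair of members with the highest correlation (Pearson's r = 0.772 over 12 libraries with line means removed), given as a description of libraries that share scaling and groups.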
